A study of Rattus norvegicus with 4 samples.

Results

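The choroid plexus epithelium genes described here are 10 genes that mark the secretory epithelium of the brain ventricles, chosen by name from background knowledge (Ttr, Enpp2, Folr1, Aqp1, Clic6, Kl, Otx2, Lmx1a, Sostdc1 and Cox8b), and a row was used for each whose symbol matched. In the libraries of the rat prefrontal cortex (frontal cortex in the labels), 9 of the 10 had such a row, out of 14004 symbols with a row in any library. The male libraries held rows for 8 of the genes among 13492 symbols and the female libraries for 9 among 13541. Cox8b had no row in any library used here, and Ttr had rows only in the female libraries. To examine how these genes compare between pups exposed prenatally to bisphenol A (BPA) and controls, 4 libraries of polyadenylated RNA were used. Each sex of the pups (Wistar in the labels, Wistar Furth in the methods of the study) gave 1 control and 1 BPA library, all of postnatal day 1 by the labels. The BPA dams received 5000 µg/kg of maternal body weight daily by gavage from gestational day 1 until parturition, and the control dams received the vehicle, ethanol in corn oil. A comparison within males or within females thus has no replicates and is one of 2 libraries. The methods name 3 pups of each sex and treatment, from independent litters, and do not say whether a library pooled them. The methods of the study state that the meninges were removed completely before the cortex was dissected. They do not mention the choroid plexus.

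The choroid plexus is a fold of vascular stroma covered by a single sheet of epithelium that grows from the dorsal midline of each ventricle, next to the cortical hem in the telencephalon. Its epithelium secretes the cerebrospinal fluid, by moving ions and water across its apical face, and carries hormones, vitamins and growth factors from the blood to the brain. Transthyretin, the product of Ttr, is among the most abundant messages of this epithelium and is not made by cortical neurons or glia at comparable levels, which is why Ttr serves as a marker of the tissue. Other genes of the group have further sources in a brain sample. Enpp2 is also made by cells of the oligodendrocyte lineage and the leptomeninges, and Aqp1 by red blood cells.

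The defining genes of the epithelium lay at or near 0 in these libraries. Ttr, Folr1, Kl, Clic6, Lmx1a and Sostdc1 were listed at 0.35 FPKM or less in every library in which they had a row, and Otx2 at 0.38 or less. FPKM is a fragment count scaled to the length of the transcript and to the mapped fragments of the library. The only genes of the group to reach 1 FPKM were Enpp2, in all 4 libraries, and Aqp1, in control female alone. The deposited FPKM moves in steps of 1 fragment, and these steps gave a depth of 9246250 fragments for the male control and 9189750 for the male BPA library, and of 8947000 and 8995000 for the female pair, so that each FPKM could be read as a whole number of fragments. Intervals on such numbers are exact 95% Poisson or binomial intervals, and they cover counting error only. Summed over Folr1, Kl, Clic6, Otx2, Lmx1a and Sostdc1, which had rows in all libraries and stayed under 1 FPKM in each, control male held 10 fragments (interval 4.8 to 18.4) and BPA male 15 (8.4 to 24.7). Control female held 14 (7.65 to 23.5) and BPA female 11 (5.49 to 19.7). The 4 intervals overlap, and the library with the most is an exposed one in males and a control one in females. The ratio of BPA to control for this sum was 1.51 in males (0.634 to 3.76), 0.781 in females (0.321 to 1.85) and 1.08 with the sexes added (0.598 to 1.97). A difference inside these intervals was not detectable at this depth. The limit of 1 FPKM left Aqp1 out of the sum through control female alone, where it held 27 fragments against 8 in BPA female. The sum therefore does not speak for Aqp1, whose ratio in females was 0.295 (0.116 to 0.667). In bulk tissue, fewer cells of a type and less RNA per cell cannot be told apart.

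**Figure D1:**
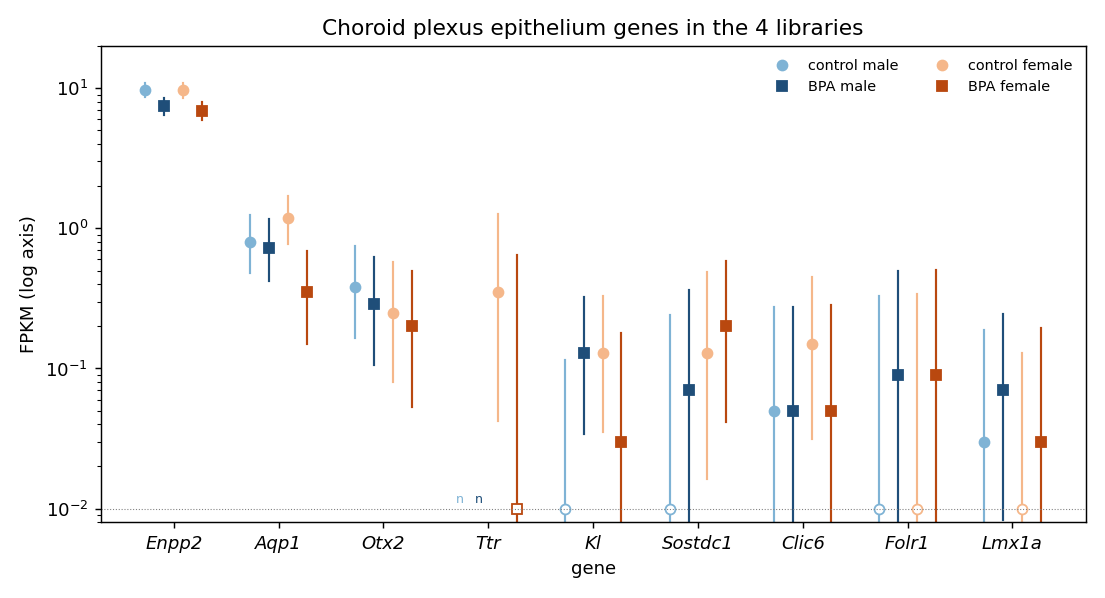
FPKM (log axis) of the 9 genes with a row, 1 point per library, with 95% Poisson intervals of the fragments behind each value as vertical lines. Open symbols on the dotted line are values listed at 0.01 (0 fragments), and the letter n marks a library without a row. Enpp2 lies between 6.85 and 9.71 FPKM and Aqp1 between 0.35 and 1.18, while the other 7 genes lie at or under 0.38.

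Among the secreted proteins, Ttr (NCBI Gene 24856), the carrier of thyroxine and of retinol-binding protein in the cerebrospinal fluid, was listed at 0.35 FPKM in control female and 0.01 in BPA female. That is 2 fragments (interval 0.242 to 7.22) in control female and 0 in BPA female, where a count of 0 allows up to 3 fragments or 0.52 FPKM. Both values lie at or under this limit, so no fold is given. All but 7 of the 16782 rows of the male libraries were above 0.01 in at least 1 of both libraries, and Ttr was not among the rows. The cortical projection neuron genes Mef2c and Emx1 also had no row in any library. A missing row is therefore not read as absence of the message.

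Enpp2 (NCBI Gene 84050) encodes autotaxin, the secreted enzyme that makes the lipid mediator lysophosphatidic acid. In males it was listed at 9.71 FPKM in the control and 7.47 in the BPA library, and in females at 9.71 and 6.85. Both control libraries were higher than both BPA libraries. These values stand for 271, 207, 262 and 186 fragments in the same order, and they place Enpp2 above 47.5 to 53.6% of the symbols of each library, near the middle. The log2 ratio of BPA to control, taken after adding 0.5 to each FPKM, was -0.36 in males and -0.47 in females. The ratio of fragments was 0.768 (interval 0.638 to 0.924) in males and 0.706 (0.582 to 0.855) in females, so both lie under 1 beyond counting error. With the sexes taken as the 2 replicates of a treatment, the log2 ratio in limma was -0.42 (standard error 0.116, unadjusted p = 0.00490, Benjamini-Hochberg adjusted p = 0.0764). Enpp2 did not pass an adjusted p of 0.05, and it was the only gene of the group with the mean FPKM of 1 that the test required. Thus 0 of 1 tested genes passed, 1 with an unadjusted p under 0.05, against 4.49% of all 10629 genes tested that passed and 21.1% with an unadjusted p under 0.05. Every call in this fit depends on the filter, since without it 0 of 13029 genes passed an adjusted p of 0.05 in limma (18.5% with an unadjusted p under 0.05). The adjusted p of Enpp2 lay between 0.0532 and 0.243 under the 11 alternatives tried, and its log2 ratio between -0.36 and -0.47.

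Other cell types that make Enpp2 were measured in the same libraries. Of 12 genes of the oligodendrocyte lineage, 0 reached an absolute log2 ratio of 1 in either sex, near the shares of all symbols, 1.53% in males and 2.47% in females. The median log2 ratio of these 12 genes was 0.05 in males and -0.18 in females. In limma 1 of 10 tested fell and 0 rose, against 3.79% and 0.696% of all genes tested. That count became 0 with median-ratio scaling, with every transcript row tested, without a trend in the variance and when BPA male, control female or BPA female was left out. The highest of the list were Olig1, a factor of the lineage (limma log2 ratio -0.30, adjusted p = 0.0624), and Cnp (-0.18, adjusted p = 0.236). The meningeal list was chosen with earlier results of these data known, so its count is no independent test. Of its 20 genes, 17 of 20 tested fell and 0 rose, with 12 lower with every transcript row tested and 7 without a trend. Their summed FPKM was 584.5 in the control and 261.8 in the BPA library of males, and 742.1 and 184.6 in those of females, and all 20 had log2 ratios below 0 in both sexes. The genes named from this list, Igf2, Gjb2, Cldn11, Gjb6, Ptgds and Slc6a13, had log2 ratios between -0.97 and -1.69 in males and between -1.89 and -2.25 in females. The part of either cell type in the values of Enpp2 was not tested.

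Sostdc1 (NCBI Gene 266803), a secreted antagonist of bone morphogenetic protein and Wnt signaling, was listed at 0.01 FPKM in the male control and 0.07 in the male BPA library, and at 0.13 and 0.2 in the female ones. These are 0, 1, 2 and 3 fragments. No library exceeded the 3 fragments that a count of 0 allows.

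Among the transport proteins, Aqp1 (NCBI Gene 25240), the water channel of the apical membrane, showed the largest female log2 ratio of the group in absolute value with 0.5 FPKM added. It was listed at 0.8 FPKM (control) and 0.72 (BPA) for males and at 1.18 and 0.35 for females, which are 19, 17, 27 and 8 fragments. The male libraries lay close to each other, and the female libraries held the highest and the lowest value of the 4. The log2 ratio was -0.09 in males and -0.98 in females. The ratio of fragments was 0.9 in males, with an interval of 0.44 to 1.83, and 0.295 in females, with an interval of 0.116 to 0.667. The female interval excludes 1 and the male interval does not. Since 4 libraries leave no spread for an interaction, a difference between the sexes was not tested. Between the libraries of the same treatment, the ratio of female to male was 1.47 (0.787 to 2.79) among controls and 0.481 (0.18 to 1.18) with BPA. The mean FPKM of Aqp1 was under 1, so it was tested only in the fit without that filter, where its log2 ratio was -0.54 (standard error 0.246, unadjusted p = 0.0809, limma adjusted p = 0.323).

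Red blood cells, which carry aquaporin-1 in their membrane, were also present in the libraries. The blood genes with a row, 11 in males and 12 in females, summed to 1661 FPKM in the male control and 1559 in the male BPA library, and to 1549 and 1276 in the female pair, with a median log2 ratio of 0.02 in males and -0.39 in females. The globin genes Hba1 (limma adjusted p = 0.431) and Hbb (0.295) were the highest, and near-identical globin copies make single values uncertain. In limma 2 of 7 tested blood genes fell and 0 rose, among them Hbb-b1 (log2 ratio -0.77, adjusted p = 0.0071), against 3.79% of all genes tested that fell. The blood count became 1 with every transcript row tested and 0 without a trend. Of the 10 genes of vascular endothelium, the median was -0.39 in males and -0.78 in females, and 4 of 9 tested fell in limma (Cdh5, Kdr, Tie1 and Tek), against 3.79% of all genes tested. This count became 0 without control female and with every transcript row tested, and 1 without BPA female and without a trend in the variance. The part of these cells in the values of Aqp1 was not tested.

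The promoter of Aqp1 is shown because this gene had the log2 ratio of largest absolute value in the group with 0.5 FPKM added. With 0.1 added, Ttr in females, on 2 fragments or fewer, was at -2.17 and Aqp1 at -1.51. The sequence is from RefSeq (GRCr8, chr4:85812534-85812783, plus strand, not the build of the deposited values) and gives the 250 bases before the start of the gene. Capitals mark a TATAAA box, a core promoter element, whose first base lies 30 bases before the start.
Aqp1 promoter: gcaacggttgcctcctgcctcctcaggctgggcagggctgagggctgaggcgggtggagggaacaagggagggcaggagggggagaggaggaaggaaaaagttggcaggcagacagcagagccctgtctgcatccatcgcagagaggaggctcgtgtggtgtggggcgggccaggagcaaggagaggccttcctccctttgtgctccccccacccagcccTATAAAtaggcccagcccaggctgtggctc
Of the 10 genes, 5 had a promoter in the table of 33469 sequences, each of 250 bases before and 50 after the start (Aqp1, Cox8b, Kl, Lmx1a and Ttr). TATAAA on the strand of the gene was found in 2 of them (Aqp1 and Cox8b), against 8.8% of all promoters. TAATCC, the motif bound by Otx2, was found on either strand in 0 of the 5, against 7.17% of all promoters, and TAATTA, a homeodomain motif searched for Lmx1a, in 0 of the 5, against 5.36%. These are matches of letters in a window and not binding sites.

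Folr1 (NCBI Gene 171049) encodes folate receptor alpha, which carries folate from the blood to the cerebrospinal fluid. It was listed at 0.01 FPKM in both control libraries and at 0.09 in both BPA libraries, that is 0 and 1 fragments. The same value in both sexes is therefore a single fragment in each exposed library, under the 3 fragments that a count of 0 allows, and no fold is given.
Clic6 (NCBI Gene 304081), of the chloride intracellular channel family, was listed at 0.15 FPKM in control female, 3 fragments, and at 0.05 in each other library, 1 fragment. The libraries do not differ beyond counting error.

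Kl (NCBI Gene 83504) encodes klotho, the coreceptor of fibroblast growth factor 23. Its male libraries were at 0.01 FPKM (control) and 0.13 (BPA) and its female libraries at 0.13 and 0.03, which are 0, 4, 4 and 1 fragments. The order of treatments was opposite in the sexes, with the BPA library higher in males and the control library higher in females. With the 0 of control male taken as 3 fragments and the 4 of BPA male as exact, the ratio in males was 1.34. This is no lower bound, since the counting interval of the ratio starts at 0.664. In females the ratio was 0.249, with an interval of 0.00505 to 2.51. Neither interval excludes 1.

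Both transcription factors of the group were scarce. Otx2 (NCBI Gene 305858), a homeobox factor needed to form the choroid plexus, was at 0.38 FPKM in the control and 0.29 in the BPA males, and at 0.25 and 0.2 in the females, which are 8, 6, 5 and 4 fragments. The BPA library was the lower of each pair, with log2 ratios of -0.16 in males and -0.10 in females, and the ratios of fragments were 0.755 (0.216 to 2.48) and 0.796 (0.158 to 3.7). Both intervals include 1. Lmx1a (NCBI Gene 289201), a LIM homeobox factor of the roof plate and cortical hem, was at 0.03 and 0.07 FPKM in males and 0.01 and 0.03 in females, control first, or 1, 2, 0 and 1 fragments. None of these exceeded 3 fragments.

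**Figure D2:**
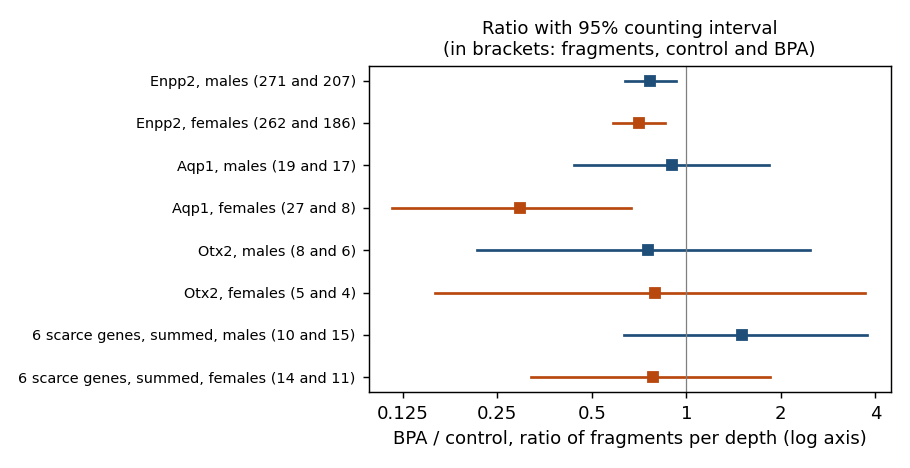
Ratio of BPA to control in fragments per depth (log axis) with its exact 95% binomial interval, for males and females, with the fragments of each library in brackets. The bottom pair sums Folr1, Kl, Clic6, Otx2, Lmx1a and Sostdc1. The intervals of Enpp2 in both sexes and of Aqp1 in females lie under 1, and the others include it.

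Over the group, the limit used within a sex, an absolute log2 ratio of 1, was reached by 0 of 8 genes in the male pair and 0 of 9 in the female pair. With 0.5 added, a gene under 0.5 FPKM in both libraries cannot reach it, so that only Enpp2 and Aqp1 could, and for the other 7 genes the 0 was set in advance. Among all symbols, 1.53% reached the limit in males and 2.47% in females, shares that are not comparable with these counts. The median log2 ratio of the group was 0.05 in males and -0.24 in females, against -0.04 and -0.06 over all symbols and -0.08 and -0.14 over the symbols with a mean under 1 FPKM in the pair. The range was -0.36 to 0.33 in males and -0.98 to 0.24 in females. In females, 6 of the 9 genes had a ratio below 0 and 3 above it, and in males 3 were below, 4 above and 1 at 0. With 0.1 FPKM added in place of 0.5, 1 of 8 genes in males (Kl) and 2 of 9 in females (Ttr and Aqp1) reached the limit, and the ratios of Kl and Ttr rest on 4 fragments or fewer. Between the libraries of the same treatment, log2 ratios of female to male ran from -0.23 to 0.37 among controls and from -0.52 to 0.30 with BPA, and 0 of the 8 genes reached the limit in either. Again only Enpp2 and Aqp1 could have, so the shares over all symbols, 0.629% among controls and 0.814% with BPA, are not comparable.

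To extend the view beyond these genes, another 30 genes known from choroid plexus epithelium were examined, of which 27 had a row. Of these, 13 stayed under 1 FPKM in every library with a row. Named here after their values were seen, they included the tight junction genes Cldn2, at 0.04 to 0.18 FPKM, and Cldn3, at 0.01 to 0.16. They also included the bicarbonate transporter gene Slc4a5, at 0.09 to 0.21, and Prlr, the prolactin receptor, at 0.01 to 0.16. The highest were Igfbp2, which binds insulin-like growth factors, at 94.6 to 129.9 FPKM, and Slc29a4, a transporter of monoamines that neurons also use, at 41.6 to 54.9 FPKM.
In males, 1 of 27 genes was lower by a log2 ratio of at least 1 and 0 higher, against 1.18% lower and 0.348% higher over all symbols. In females, 6 of 26 were lower and 0 higher, against 2.21% lower and 0.266% higher. As above, a gene under 0.5 FPKM in both libraries cannot reach this limit, so the counts are not comparable with the shares. The median log2 ratio of the list was -0.14 in males and -0.12 in females. In limma, 3 of 12 tested genes fell and 1 rose, against 3.79% and 0.696% of all genes tested.
Slc13a4, a sulfate transporter of the choroid plexus and of the leptomeninges, fell from 14.47 FPKM in controls to 7.83 with BPA in males, and in females from 22.15 to 6.02 (limma log2 ratio -1.32, standard error 0.184, adjusted p = 0.00426). Cdkn1c, an inhibitor of the cell cycle, fell from 15.07 to 8.85 and from 16.51 to 6.85 (limma log2 ratio -0.97, standard error 0.13, adjusted p = 0.00368). Igfbp2 fell by 0.34 on the log2 scale (adjusted p = 0.0331 from limma) and Slc29a4 rose by 0.33 (adjusted p = 0.031). All 4 calls were lost without the filter on low values, with every transcript row tested and without a trend in the variance, at adjusted p between 0.0529 and 0.186 in limma. Those of Igfbp2 and Slc29a4 were also lost when control female or BPA female was left out, and that of Slc29a4 without BPA male. RGD1305645, which the RefSeq table pairs with the augurin gene Ecrg4, was 4.98 and 2.19 FPKM in control and BPA males and 3.3 and 0.66 in the females (limma log2 ratio -1.37, adjusted p = 0.0562), and it passed without BPA male (adjusted p = 0.00133) or control female (0.0130).
The potassium channel gene Kcnj13 was 1.25, 0.45, 1.67 and 0.46 FPKM in the same order, that is 14, 5, 18 and 5 fragments. Calml4 was 0.52, 0.52, 0.8 and 0.13 FPKM, or 4, 4, 6 and 1 fragments. The female ratio of Calml4 had an interval of 0.0036 to 1.37, which includes 1. Krt8, a keratin of simple epithelia, was 0.13, 0.6, 1.16 and 0.14, that is 2, 9, 17 and 2 fragments. These 3 genes had a mean under 1 FPKM and were not tested in the main fit. The meningeal genes given above moved in the same libraries, and their part in the values of this list was not tested.

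**Figure D3:**
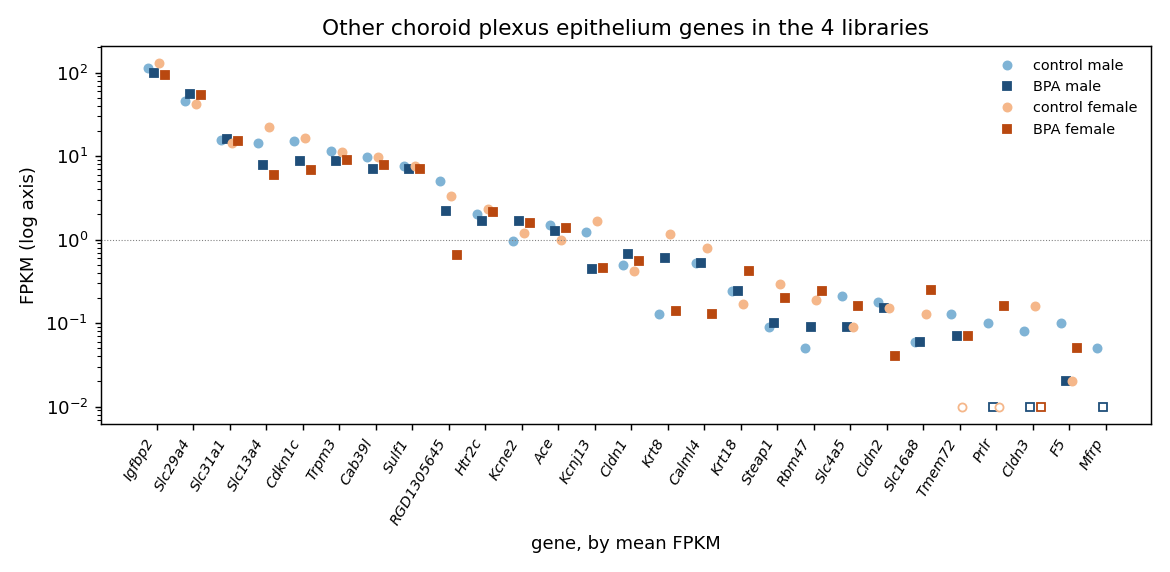
FPKM (log axis) of the 27 other choroid plexus epithelium genes with a row, 1 point per library, ordered by mean, with open symbols for values listed at 0.01 and a dotted line at 1 FPKM. Igfbp2 and Slc29a4 lie above 40 FPKM in every library, and 13 genes stay under the dotted line throughout.

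**Figure D4:**
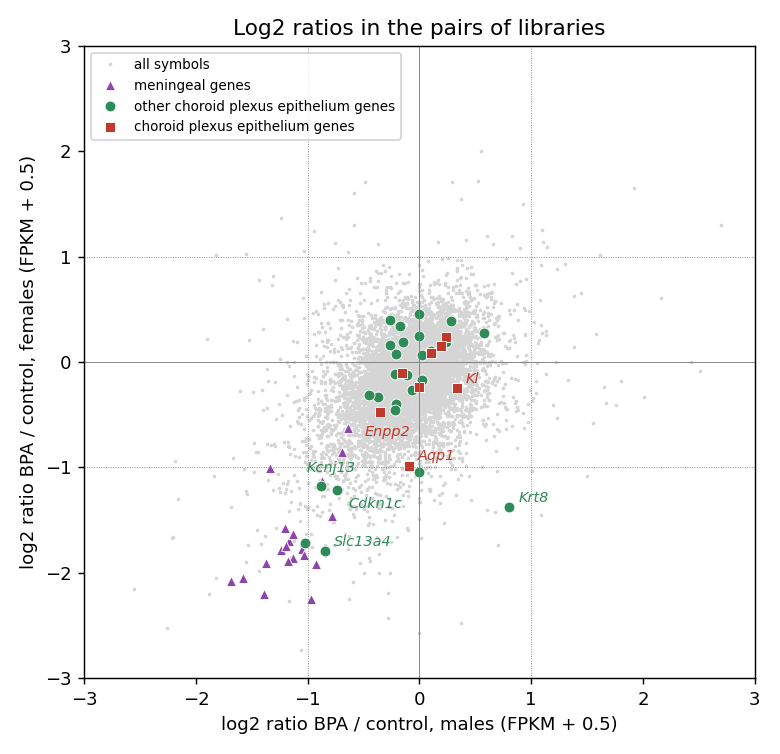
Log2 ratio of BPA to control (0.5 added to each FPKM) in males (x axis) and females (y axis) for the 13029 symbols with a row in all libraries, 1 of which lies outside the axes. Choroid plexus epithelium genes (squares) lie between the dotted lines at -1 and 1, the nearest to a line being Aqp1 at -0.98 in females, while the 20 meningeal genes (triangles) all lie below 0 on both axes.

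As for the tissue itself, 8 of the 10 cortical projection neuron genes had a row. These 8 were all above 1 FPKM in every library and summed to 571.5 to 622.3 FPKM, with Neurod6 at 215.6 to 255.3.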

How the data were processed

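RNA-seq of the prefrontal cortex gave 1 library per sex and treatment. Per the paper's methods and the file headers, the authors mapped reads to Rnor_6.0 with Bowtie 2 and deposited FPKM from RSEM, to 2 decimals with 0.01 as the lowest value. HISAT is also named in the submitters' notes, and versions are not given in the sources used here. Values at 0.01 were taken as 0 in ratios.

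Each symbol had a single row, so that summing per symbol left the values as deposited, and rows without a symbol entered only one alternative. The design and gene lists were chosen with earlier results of these data known. The rule named every choroid plexus epithelium gene, and of other lists those reaching an absolute log2 ratio of 1 in a sex (at most 6) and the 2 highest. Others (Kdr, Tie1, Tek, Aqp4, Bmp6, Foxj1, Cldn2, Cldn3, Slc4a5, Prlr) were named after their values were seen. Mef2c, Emx1, Wnt3a, Wnt8b and Gdf7 were named after they were found to have no row. A few genes of these lists are not reported here. Its search for the genes nearest to Ttr could not be made without male rows and was replaced by Enpp2, after the values were seen. List symbols without a row were looked up in a RefSeq table (GRCr8, names only).

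Log2 ratios added 0.5 FPKM. Treatments were compared on log2(FPKM + 0.5), using limma 3.58.1 under R 4.3.3, over symbols with a mean of at least 1 FPKM, treatment as the only term, a trend in the prior variance and Benjamini-Hochberg adjustment, leaving 2 residual degrees of freedom. Pups are not identified, so p-values measure the spread between these 4 libraries. Depth was recovered from 694 to 716 scarce transcripts per library, of which 94.0 to 96.1% fell within 0.1 of a whole fragment at an effective length of the length minus 60 bases. This step, added after the values were seen, and limma were tested on simulated data. PCR duplicates cannot be told from separate molecules. Python 3.11.15, scipy 1.17.1 and matplotlib 3.10.9 were used. Alternatives changed the pseudocount, scaling, filter, rows, terms, trend and libraries.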

Additional observations from a re-analysis of the deposited data

Results flagged for a closer look

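Kl had a log2 ratio of BPA to control of 0.33 in males and -0.25 in females, on 0 against 4 and 4 against 1 fragments, so the libraries of the sexes differed in opposite directions. Krt8 had log2 ratios of 0.80 in males and -1.38 in females, on 2 against 9 and 17 against 2 fragments. With 1 library of each kind, the difference between the sexes was not tested for either gene.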

How the results depend on the processing

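With 0.1 FPKM added in place of 0.5, 1 choroid plexus epithelium gene in males and 2 in females reached an absolute log2 ratio of 1, in place of 0. The median log2 ratio in males was -0.36 when only the single gene with a mean of at least 1 FPKM (Enpp2) was used, in place of 0.05. The count of these genes that passed in limma was 0 under every alternative run, including each library left out. Over all genes, the 477 that passed (74 higher, 403 lower) became 0 without the filter (2410 with an unadjusted p under 0.05), 74 with every transcript row tested, 867 with sex as a further term and 50 without a trend, and with each library left out they ranged from 252 to 490 (252 without control female and 292 without BPA female). The cause was not tested. With scaling by the median ratio, 440 passed, 121 higher and 319 lower. Where a library is left out, the lone library of its treatment is assumed to vary like the others. With each library left out, the limma log2 ratio of Hba1 ranged from -0.2724 to 0.003289 (without BPA female) and that of Reln from -0.1253 (without control male) to 0.2593. Of the other values of single genes, 446 kept their side of the threshold or moved by less than the counting error, 82 no longer passed and 13 newly passed in an unchanged direction. The labels carry no replicate numbers, and the fit with sex as a term pairs the libraries by sex. Values of 1 to 8 fragments limit every statement on the scarce genes.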

Other observations

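Carriers of retinoids and thyroid hormone, whose transport the choroid plexus shares with other barriers, were measured for 9 genes. In limma, 3 of 8 tested fell and 0 rose, against 3.79% and 0.696% of all genes tested, the shares that also stand behind the counts of the lists below. Without the filter on low values, 0 genes of any list passed. Slco1c1, a thyroxine transporter of brain capillaries and choroid plexus, fell from 28.91 FPKM in controls to 19.96 with BPA in males, and in females from 33.39 to 22.29 (limma log2 ratio -0.55, adjusted p = 0.0125). Crabp2 fell by 0.98 on the log2 scale (limma adjusted p = 0.0374), and its call was lost without either female library (adjusted p of 0.0681 without control female and 0.0882 without BPA female). Rbp4, the plasma retinol carrier that binds transthyretin, was 4.99 and 4.26 FPKM in control and BPA males and 8.65 and 3.16 in the females, with a limma adjusted p of 0.0999, and of 0.00315 without control male. The calls of Slco1c1 and Crabp2 were also lost with every transcript row tested and without a trend in the variance.

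Of 14 genes for ion and water transport into the cerebrospinal fluid, 1 of 11 tested fell, Aqp4, the water channel of astrocyte endfeet (limma log2 ratio -0.72, adjusted p = 0.00614), and 0 rose. The call of Aqp4 was lost with every transcript row (adjusted p = 0.0549 in limma) and without a trend (0.0656), and the count became 2 without control male and 3 with sex as a term. Atp1b1 at 181.6 to 219.2 FPKM, a subunit of the sodium pump of all cells, did not pass (limma adjusted p = 0.0758) but passed with sex as a term (0.0154). Car14 was 0.45 and 0.23 FPKM in control and BPA males and 0.82 and 0.12 in the females, and was not tested. These are 4, 2, 7 and 1 fragments, and the interval of the ratio includes 1 in males (0.0455 to 3.51) and females (0.00315 to 1.11). Among ependymal and ciliary genes, 1 of 3 tested fell, Rarres2, which encodes chemerin (limma log2 ratio -1.21, adjusted p = 0.00397, and 0.0511 with every transcript row). Enkur did not pass (limma adjusted p = 0.28). Mia was 0.41 and 0.21 FPKM in males and 1.27 and 0.01 in females, control first, on 2, 1, 6 and 0 fragments, and was not tested. Foxj1, the master regulator of motile cilia, was at 1.03 to 1.25 FPKM. Of 12 genes of the cortical hem and roof plate with a row, 2 of 8 tested fell, Bmp6 and Bmp7 (limma log2 ratios of -0.85 and -1.19). Lhx2 was the 1 that rose (0.49). The call of Bmp6 was lost with every transcript row (adjusted p = 0.0730 in limma) and without a trend (0.0564), and its log2 ratio was -0.77 without control female. That of Lhx2 was lost with every transcript row (limma adjusted p = 0.0539) and without a trend (0.0824). Rspo3 did not pass (limma adjusted p = 0.324), and Wnt3a, Wnt8b and Gdf7 had no row.

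The lists were chosen with earlier results of these data known, so their counts are no independent test. The striatal list had 7 of 12 genes higher in limma, among them Rxrg, Ebf1, Ppp1r1b and Foxp1 (log2 ratios 1.79, 1.12, 0.45 and 0.47), against 0.696% of all genes tested. This count became 2 with every transcript row tested and 3 without a trend. The call of Ebf1 was lost with every transcript row (limma adjusted p = 0.0744), that of Foxp1 there and without a trend (0.0715 and 0.0987), and that of Ppp1r1b in both and without control male or BPA female (0.0919 to 0.180). The olfactory bulb list had 2 of 4 lower, or 1 with every transcript row or without a trend, with Cdhr1 at a log2 ratio of -2.04 and Reln at 0.07 (limma adjusted p = 0.768). Tbx21 and Ms4a15 were not tested and had log2 ratios of -2.16 and -0.93 in males and -1.30 and -1.19 in females. In the cortical projection neuron list 1 of 8 rose and 1 fell, and 0 did either without a trend. In the blood list 0 of 7 rose and 2 fell (4 without BPA male, 1 with every transcript row and 0 without a trend), Hbb-b1 at a log2 ratio of -0.77, with Hba-a1 not passing (limma adjusted p = 0.32) and Ahsp not tested. In the endothelial list, Cldn5 did not pass (limma log2 ratio -0.42, adjusted p = 0.0788) but passed with sex as a term (0.0343), without control male (0.0149) and without BPA male (0.00342). Emcn did not pass (limma adjusted p = 0.301), and its log2 ratio of -0.59 ranged from -0.11 without BPA female to -1.08 without BPA male.

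The 5 genes of at least 5 FPKM whose log2 values over the 4 libraries lay nearest to those of Enpp2 were Timm22, Amph, Ednrb, Acat2 and Il6st, at Euclidean distances of 0.03 to 0.0493 after centering each gene on its mean. With 4 libraries, this describes their order and no more.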
